A study of Mus musculus with 29 samples.

Results

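The 10 genes described here are Calb1, Lrp2, Alox15, Olah, Acbd7, Acod1 (named Irg1 in the files), Gldc, Calca, Il13ra2 and Drd4, out of 27670 gene names on the array. They are genes of the receptive phase of early pregnancy in the mouse uterus, and they were chosen by their measured values: each was noted to be higher by GD3.5 or lower by GD5.5. The days of gestation are written GD. Their course over the days is therefore given as a description with no test, and the members are tested only for the comparison of exposures. The choice did not name that comparison, but it read all 8 day-by-exposure groups, with earlier results of these data known. It may therefore not be independent of the exposure tests.

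RNA of whole uteri from female CD-1 mice was measured on 29 single-colour arrays at 4 gestation days. CON mice had received corn oil and GEN mice genistein, a soy isoflavone that binds oestrogen receptors, at a daily dose of 50 mg/kg from postnatal day 1 to day 5. GD1.5 had 3 CON and 4 GEN arrays, GD3.5 had 3 of each exposure, and the 2 later days, GD4.5 and GD5.5, had 4 of each. The study's title links the exposure to failed implantation and to gland formation, and nothing in the labels says whether arrays of a group came from separate animals, so the spread between them may be partly technical. Whole-uterus RNA does not show which cells hold a transcript, so that the genes are epithelial is background and could not be checked here.

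All levels are log2 signals relative to the 75th percentile of their own array, so 0 is that percentile and a difference of 1 is a doubling. Between 65.5% and 80.9% of the spots of an array were well above background. The GD1.5 arrays and 5 of the 6 GD3.5 arrays shared 3 slides and 1 scan, the third GD3.5 CON array was alone on a slide and scan, and the GD4.5 and GD5.5 arrays shared 4 slides and a later scan. The 75th percentile lay at an intensity of 1490 to 1840 on the arrays of the earlier days and at 734 to 995 on those of the later days. Differences between GD3.5 and GD4.5 cannot be told apart from the change of slides and scan, while GD1.5 shared slides with most of GD3.5, and GD4.5 with GD5.5. The fits had no slide term, and one with the slide as a fixed block called 120 genes in place of 481 from GD1.5 to GD3.5 in CON, and 943 in place of 4405 from GD4.5 to GD5.5 in GEN.

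The receptive phase is the short time before implantation in which progesterone, with a small rise in oestrogen, prepares the luminal epithelium to accept a blastocyst. Epithelial cells stop dividing, the surface loses its barrier to attachment, and calcium, lipid and immune mediators are made or taken up by the epithelium and glands. After attachment, stromal cells turn into decidua and the epithelium around the embryo is lost. Genes that mark the phase are often targets of the progesterone receptor, and calcitonin, lipoxygenase and the itaconate enzyme Acod1 are known examples from rodents.

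The upstream sequences of 4 of the genes are shown because Acbd7 and Olah are neighbours on chromosome 2 with like profiles, Calca was the member called between exposures, and Drd4 was the member with its highest level at GD5.5. Each is the 250 bases before the start site in RefSeq's GRCm38.p6, read 5′ to 3′ on the gene's strand: chr2:3335918-3336167 (+) for Acbd7, chr2:3366570-3366819 (-) for Olah, chr7:114636358-114636607 (-) for Calca and chr7:141291768-141292017 (+) for Drd4. Capitals mark matches, on either strand, to AGAACA, an element bound by steroid receptors, or to AGATAA, bound by GATA factors.
Acbd7: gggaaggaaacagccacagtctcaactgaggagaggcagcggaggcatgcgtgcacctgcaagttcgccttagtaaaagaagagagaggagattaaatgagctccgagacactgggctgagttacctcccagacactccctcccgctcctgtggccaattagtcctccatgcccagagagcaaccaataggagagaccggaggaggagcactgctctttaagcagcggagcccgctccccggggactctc
Olah: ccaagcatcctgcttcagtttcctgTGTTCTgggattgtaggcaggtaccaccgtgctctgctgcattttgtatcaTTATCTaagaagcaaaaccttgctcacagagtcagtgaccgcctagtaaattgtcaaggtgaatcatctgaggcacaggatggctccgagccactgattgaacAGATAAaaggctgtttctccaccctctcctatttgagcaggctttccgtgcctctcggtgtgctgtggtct
Calca: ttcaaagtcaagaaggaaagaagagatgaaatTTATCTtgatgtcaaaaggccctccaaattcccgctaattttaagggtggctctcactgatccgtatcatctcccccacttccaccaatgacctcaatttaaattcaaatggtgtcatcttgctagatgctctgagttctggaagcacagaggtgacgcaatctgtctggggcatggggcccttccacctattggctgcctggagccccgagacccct
Drd4: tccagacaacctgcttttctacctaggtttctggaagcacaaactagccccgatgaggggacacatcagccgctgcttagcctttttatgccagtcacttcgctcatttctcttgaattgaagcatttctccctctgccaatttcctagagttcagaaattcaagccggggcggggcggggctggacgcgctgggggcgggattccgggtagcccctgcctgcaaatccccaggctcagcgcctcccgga

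RefSeq's table held promoters for 8 of the 10 genes, each 300 bases long with 50 bases after the start. AGAACA or its reverse complement was in 1 of the 8 (Olah, at -225 and +45) and in 19.0% of all 32851 promoters of that length. AGATAA was in 3 of the 8 (Olah at -174 and -71, Calca at -218 and Il13ra2 at -15) and in 11.2% of all. The STAT motif TTCNNNGAA was in 0 of the 8 and in 8.30% of all, and TATAAA was in 2 of the 8 (Acod1 at -28, Il13ra2 at -248 and -31) and in 13.6% of all. These are matches of letters only, and no matches in these promoters overlap one another.

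Calca had 2 probes that followed different transcripts, and the size and call of the exposure difference varied with the probe read. The file names them by transcript variant, and the first 30 bases of each 60-base probe are shown.
Calca variant 1: ggcagtcatctggcttcctagtagagcttc
Calca variant 2: tattgtgcatcgtgttgtatgtgactctgt
On the design's mouse build mm7, the first lies at chr7:110549383-110549442 (-) and the second at chr7:110547755-110547814 (-). The probe for variant 1 was the brighter and stands for the gene.

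The 10 genes had 16 probes in all, and 6 genes had 1 probe each. For every gene the brightest probe is used. The 2 probes of Acod1, which share part of their sequence, had r = 0.998 across the 29 arrays, those of Drd4 0.996, and the 4 of Lrp2 between 0.764 and 0.996, whereas those of Calca had r = 0.219. All 29 arrays measured 8 of the genes well above background, 28 measured Gldc and 13 measured Olah.

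Calb1 encodes calbindin, a cytosolic protein that buffers and carries calcium (probe at chr4:15832543-15832602, +). Its CON arrays read 2.13, 2.71 and 2.64 at GD1.5 and 3.81, 4.99 and 4.33 at GD3.5. The CON arrays of GD4.5 read 2.88, -0.64, 4.00 and 1.85, and those of GD5.5 read -3.81, -3.33, -2.86 and -3.86. Within CON all GD3.5 arrays lay above all GD1.5 arrays, the GD4.5 arrays were widely spread, and every GD5.5 array lay below every GD4.5 array. Across exposures the days overlapped, since the fourth GD1.5 GEN array (4.72) lay among the GD3.5 CON arrays and the second GD5.5 GEN array (-0.40) above the second GD4.5 CON array. In CON the mean was 3.69-fold higher at GD3.5 than at GD1.5, and 44.8-fold lower at GD5.5 than at GD4.5. In GEN the same steps were 3.74-fold and 12.2-fold.

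Lrp2 encodes megalin, the endocytic receptor that takes up vitamin-binding proteins, calcium-binding proteins and lipoproteins at the apical surface (probe at chr2:69355058-69355117, -). CON arrays read 1.76, 1.06 and -0.79 at GD1.5, and 3.45, 3.86 and 3.51 at GD3.5. The CON arrays of GD4.5 read -1.30, -1.31, 2.13 and -0.69, and those of GD5.5 -3.55, -2.54, -2.87 and -2.49. The GD3.5 arrays were close together and high, and the third GD4.5 CON array stood above the other 3 of its group. The mean was 7.61-fold higher at GD3.5 than at GD1.5 in CON and 7.43-fold in GEN. It was 5.94-fold lower at GD5.5 than at GD4.5 in CON and 3.18-fold in GEN, where the arrays of the 2 days overlapped.

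Alox15 encodes the lipoxygenase that oxygenates arachidonic and linoleic acid, and it did not follow the course of the calcium genes (probe at chr11:70427187-70427411, -, a span wider than the probe). Its group means were 1.64, 1.51 and 2.22 in CON at GD1.5, GD3.5 and GD4.5, with overlapping arrays throughout, so no increase by GD3.5 was seen. The GD4.5 arrays read 3.16, 1.59, 2.51 and 1.61 in CON and -0.11, -0.66, 2.98 and 0.64 in GEN. The GD5.5 arrays read -2.53, -2.28, -2.71 and -2.51 in CON and -2.59, -1.91, -2.17 and -2.69 in GEN. The GD5.5 arrays of both exposures formed a narrow low range below every earlier array. The step from GD4.5 to GD5.5 was a 26.5-fold lower mean in CON and 8.32-fold in GEN.

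Acbd7 encodes a small acyl-CoA-binding protein, and Olah encodes the thioesterase that releases medium-chain fatty acids from fatty acid synthase. Their probes lie 1366 bases apart on mm7, on opposite strands (chr2:3258143-3258202, +, and chr2:3259569-3259628, -), and the genes are adjacent in RefSeq's order. Acbd7 read -2.86, -3.15 and -4.23 on the CON arrays of GD1.5 and 0.78, 2.06 and 0.85 on those of GD3.5. Its GEN arrays read -4.30, -3.19, -1.16 and -1.51, and then 2.17, 2.10 and 2.06. The mean was 24.9-fold higher at GD3.5 in CON and 25.0-fold in GEN, with every GD3.5 array above every GD1.5 array. By GD4.5 the CON arrays read -2.50, -3.61, -0.96 and -3.16 and the GEN arrays -3.64, -3.94, -2.78 and -2.69. At GD5.5 all 8 arrays lay between -4.80 and -3.59.

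Olah was dim, and GD3.5 was the day on which every array measured it. At GD1.5 it was well above background on 2 of 3 CON and 3 of 4 GEN arrays. Its GD3.5 arrays read -2.42, -0.94 and -2.38 in CON and -1.19, -1.24 and -1.17 in GEN, and means were 4.79 and 4.89 above GD1.5 on the log2 scale. The GD1.5 means include the arrays that were not well above background (-7.94 in CON and -9.79 in GEN), and under normexp background correction the same differences were 2.79 and 2.92. At GD4.5 it was well above background on 2 of the 4 CON arrays (mean of all 4, -5.58) and on none of the 4 GEN arrays (mean -7.29), which gives at least a 1.38-fold higher level in CON. This lower bound sets the CON mean, which includes 2 arrays not well above background and 1 high array (-4.46), against the higher of the dim probe's own signal and the lowest well-measured signal of each GEN array. On the GD5.5 arrays it was not well above background in either exposure and no fold was formed there. Olah was not tested between exposures at GD4.5 or GD5.5.

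Acod1 encodes the mitochondrial enzyme that makes itaconate from cis-aconitate and is known both from activated macrophages and from luminal epithelium (probe at chr14:97488885-97488945, +). CON arrays read -0.09, 0.85 and 1.00 at GD1.5 and 2.97, 3.84 and 3.41 at GD3.5. At GD4.5 they read 4.60, 4.15, 3.92 and 3.95, and at GD5.5 0.70, 0.43, -0.51 and 0.38. The GD4.5 CON group was the highest for this gene, a rank over GD3.5 that cannot be told apart from the change of slides and scan. The CON mean was 7.07-fold higher at GD3.5 than at GD1.5 and 14.9-fold lower at GD5.5 than at GD4.5. In GEN it was 4.38-fold higher and then 4.45-fold lower, with 1 low GD4.5 array (1.17) and 1 high GD5.5 array (2.80) that made the days overlap. All 8 macrophage markers listed were above background on every array, with a mean level of 1.60 to 3.07 across the GD4.5 CON arrays and 0.17 to 1.46 across the GD5.5 CON arrays. Of them 7 fell from GD4.5 to GD5.5 in CON (limma, Benjamini-Hochberg adjusted p under 0.05), a step over which 30.1% of all genes were called. In GEN, where 21.0% of all genes were called, only Mrc1 among them was called, lower by 0.67 (limma adjusted p = 0.0239). The part of the macrophage markers in the Acod1 values was not tested.

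Gldc encodes the glycine decarboxylase of the mitochondrial glycine cleavage system, which feeds one-carbon metabolism (probe at chr19:29798508-29798567, -). It read -4.58, -4.70 and -5.58 on the GD1.5 CON arrays and -1.69, -0.45 and -0.93 on the GD3.5 CON arrays. The GEN arrays of GD3.5 read -0.09, 0.52 and 0.04, all above the CON arrays of that day. The mean was 15.2-fold higher at GD3.5 than at GD1.5 in CON, a log2 difference of 3.93, and in GEN that difference was 4.91. From GD4.5 to GD5.5 it was 2.34-fold lower in CON and 1.77-fold lower in GEN, where the arrays overlapped and the third GD5.5 array (-5.85) was not well above background.

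Il13ra2 encodes a receptor that binds interleukin-13 with high affinity and is known as a decoy (probe at chrX:142047817-142047876, -). CON arrays read -1.81, -2.30 and -1.61 at GD1.5 and -0.15, -0.63 and 0.55 by GD3.5. The later CON arrays read 0.56, 0.92, 0.72 and 1.03 at GD4.5, then -0.62, -0.64, -0.10 and -0.24 at GD5.5. Like Acod1 it was highest at GD4.5, and its later decline was small, 2.31-fold in CON and 1.67-fold in GEN. Its rank at GD4.5 over GD3.5 cannot be told apart from the change of slides and scan. At GD1.5 the GEN arrays read -3.81, -3.82, -3.24 and -1.08, so 3 of the 4 lay below every CON array and the last lay above them.

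Drd4 encodes a dopamine receptor coupled to inhibition of adenylyl cyclase, and it had a different course with 2 high days (probe at chr7:137712047-137712106, +). CON arrays read -4.75, -5.03 and -5.48 at GD1.5 and 0.32, 0.47 and 0.06 at GD3.5. At GD4.5 they read -3.40, -2.78, -0.23 and -2.89, and at GD5.5 4.54, 4.99, 4.11 and 3.90. The GD5.5 arrays were far above all others. The CON mean was 41.2-fold higher at GD3.5 than at GD1.5 and 105-fold higher at GD5.5 than at GD4.5; in GEN the steps were 14.7-fold and 51.8-fold. The second Drd4 probe followed the same course. The label of receptive-phase gene therefore covers only its increase by GD3.5, since its highest level came at GD5.5. The rank of GD5.5 over GD3.5 crosses the change of slides and scan, while GD4.5 shared slides with GD5.5.

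Calca gives rise to calcitonin and to the calcitonin gene-related peptide by alternative splicing, and calcitonin is known as a progesterone-dependent product of uterine glands before implantation. The probe for variant 1 read 1.91, -1.19 and -4.12 on the GD1.5 CON arrays, and -3.68, -4.73, -4.97 and -2.68 on the GD1.5 GEN arrays. At GD3.5 it read 1.52, 1.08 and -1.19 in CON and -2.24, -0.28 and -0.56 in GEN. The GD1.5 CON arrays were spread over a wide range, and at both days the highest values were CON arrays while the groups overlapped. At GD4.5 it read -1.30, -1.46, 0.16 and -0.55 in CON and -3.60, -2.81, -2.67 and -2.72 in GEN, with no overlap, as was the case for 4.14% of all genes tested on that day. At GD5.5 it read -1.76, -0.99, -0.83 and -1.27 in CON and -2.51, -2.70, -1.54 and -1.43 in GEN. Calca changed less over the days in CON than most of the others (1.34-fold lower from GD4.5 to GD5.5), and the arrays of neighbouring days overlapped in CON at every step.

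**Figure D1:**
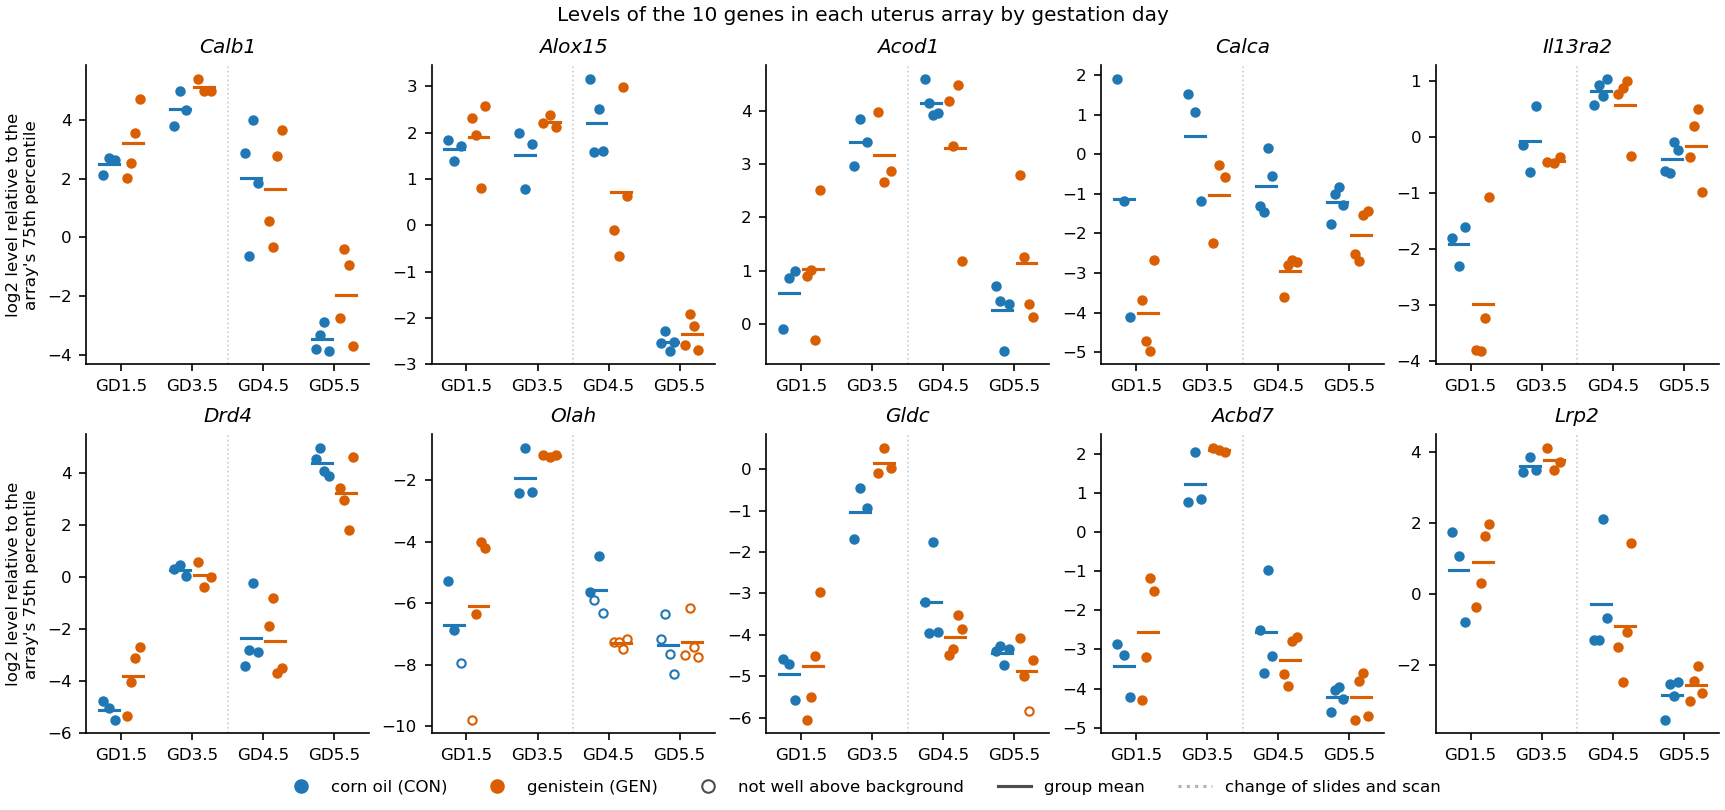
Log2 level relative to the array's 75th percentile (vertical axis) of each of the 10 genes by day of gestation (horizontal axis), 1 point per array, CON in blue and GEN in orange, with group means as bars and open points where the spot was not well above background. Drd4 is highest at GD5.5 (CON mean 4.39), the CON means of the other 9 genes are lower at GD5.5 than at GD4.5, and the mean of Calca is lower in GEN than in CON on each day.

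Across the genes, 9 of 10 had a higher mean at GD3.5 than at GD1.5 in CON, 8 of them with no overlap of arrays, and the median difference was 2.88 on the log2 scale (range -0.13 to 5.37). In GEN all 10 means were higher, 9 without overlap, with a median of 2.94. From GD4.5 to GD5.5, 9 of 10 means were lower in CON, 8 without overlap, but Olah was not well above background at the end and Calca differed by only -0.42. In GEN 7 of 10 were lower, and 2 of these (Calb1 and Alox15) showed no overlap. Under normexp the GEN step turned to 0.95 for Gldc and 0.72 for Acbd7, where the median of all genes was 0.36, and with normexp fitted without spots of high local background both were again lower (-0.22 and -0.38). Normexp also gave smaller CON differences from GD1.5 to GD3.5 for Gldc (2.94, against 3.93) and Drd4 (4.18, against 5.37). Over all genes tested, the shares called were 2.33% in CON and 4.76% in GEN from GD1.5 to GD3.5, and 30.1% and 21.0% from GD4.5 to GD5.5. Those are shares of calls, and the shares of all genes whose arrays did not overlap over these steps are not reported here. Since these contrasts chose the genes, the counts are read no further.

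The order of the 8 group means placed GD3.5 GEN and GD3.5 CON highest for Calb1, Olah, Gldc, Acbd7 and Lrp2. GD4.5 CON was highest for Acod1 and Il13ra2, GD3.5 GEN for Alox15, GD3.5 CON for Calca and GD5.5 CON for Drd4. Ranks of GD1.5 and GD3.5 against GD4.5 and GD5.5 cannot be told apart from the change of slides and scan. Most neighbours in these orders did not differ beyond their arrays' spread: of 7 neighbouring pairs, the arrays overlapped in 7 for Calca, 5 for Gldc and 6 for each of the other 8 genes. From the highest to the lowest group mean, the distance was 9.47 for Drd4, 8.58 for Calb1, 6.65 for Lrp2 and 3.80 for Il13ra2.

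Markers of epithelium moved with the later decline. The list of 15 genes for luminal and general epithelium had a mean level of 0.59 to 1.56 across GD4.5 CON arrays and -0.51 to -0.23 across GD5.5 CON arrays, and 14 of the 15 were above background on all arrays. From GD4.5 to GD5.5, 10 of the 15 fell and 1 rose in CON (median -1.81, against 0.02 over all genes), and 8 fell in GEN (median -0.95, against 0.09). Between GD1.5 and GD3.5, by contrast, 0 of the 15 rose and 1 fell in CON, with a list mean of 1.71 and then 1.14. The mean of the 9 stromal genes lay between 3.68 and 4.16 in all 8 groups, but its genes moved both ways: from GD4.5 to GD5.5 in CON 4 rose, among them Hand2 by 1.90, and 2 fell, Dcn by 1.14 and Col3a1 by 0.60. Of 7 myometrial genes, 4 fell over that step in CON, among them Myh11 by 1.13, and 1 rose (Des, by 0.78). The 8 eosinophil and mast cell markers had list means of -3.13 to -1.17 at GD4.5 and -4.60 to -3.55 at GD5.5 in CON, and 6 of them fell. In whole tissue, fewer cells of a type and less RNA per cell cannot be told apart, and the part of these lists in the members' decline was not tested.

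Comparison of GEN with CON asked whether neonatal exposure altered these genes in the adult pregnant uterus. None of the 10 passed the test on any single day (limma over all 29 arrays, Benjamini-Hochberg adjusted p under 0.05 over all genes tested). The numbers with an unadjusted p under 0.05 were, in order of day, 2 of 10, 0 of 10, 2 of 9 and 0 of 9. The shares of all genes at that level were 6.03%, 5.38%, 9.39% and 5.29%. Over all genes, 0.0975% were called at GD1.5, 0.103% at GD3.5, 0.116% at GD4.5 and 0% at GD5.5, where 1101 of 20828 genes had an unadjusted p under 0.05. Averaged over the 4 days, 1 of the 10 was called, against 1.00% of all genes. The change of the exposure effect was called for 0 of 10 from GD1.5 to GD3.5 (0% of all genes, with 486 of 21063 at an unadjusted p under 0.05) and for 0 of 9 from GD4.5 to GD5.5 (0.00443% of all). At an unadjusted p under 0.05 these 2 comparisons had 0 and 1 of the members, against 2.31% and 7.19% of all genes.

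The called gene was Calca, which was lower in GEN. Its average difference was -1.85 on the log2 scale, 3.59-fold (SE 0.44, 95% interval -2.76 to -0.93, limma adjusted p = 0.0416), and the mean was lower in GEN on 4 of 4 days. By day the differences were -2.88 (SE 0.90, adjusted p = 0.418), -1.50 (SE 0.97, adjusted p = 1.000), -2.16 (SE 0.84, adjusted p = 0.379) and -0.84 (SE 0.84, adjusted p = 1.000). Within each slide that held both exposures the difference was also negative: -6.64 to -2.31 over 2 slides at GD1.5, -3.76 to -1.64 over 2 at GD3.5, -2.97 to -1.87 over 3 at GD4.5 and -1.71 to -0.17 over 3 at GD5.5. The change of the effect with day was not called, with 1.39 (SE 1.32) from GD1.5 to GD3.5, and it was -0.13 without the first GD1.5 CON array and 2.88 without the third.

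The average Calca call lay close to the threshold. When each of the 29 arrays was left out in turn, the difference ran from -2.22 to -1.47 and the limma adjusted p from 0.00179 to 0.0956. The call was kept only without GD1.5 CON 1, GD1.5 CON 3, GD1.5 GEN 1, GD1.5 GEN 4, GD3.5 CON 3, GD4.5 CON 2, GD4.5 GEN 3 or GD5.5 GEN 4, and it was lost without any of the other 21. It was also lost under normexp background correction (-1.40, adjusted p = 0.0942), and it was kept with the mean of both probes (-1.22, adjusted p = 0.00217). Without GD1.5 CON 1 the GD1.5 difference was -1.36, and without GD1.5 CON 3 that day's difference was called.

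The probe for Calca variant 2 gave a smaller difference in the same direction. Its average was -0.60 (SE 0.16, 95% interval -0.93 to -0.26, limma adjusted p = 0.0911 among 34905 probes), a choice made after the data were seen. In the same test over probes the variant 1 probe averaged -1.85 (limma adjusted p = 0.0446). The variant 2 means by day in CON were -3.71, -2.58, -1.66 and -1.59 and in GEN -4.61, -3.45, -2.08 and -1.79. These levels were higher on each later day, a course that the variant 1 probe did not have, and the GEN to CON differences by day were -0.90, -0.87, -0.43 and -0.19. Unlike those of variant 1, its within-slide differences were not all negative. They ran from -1.09 to 0.30 at GD1.5, -1.04 to -0.77 at GD3.5, -0.84 to -0.02 at GD4.5 and -0.64 to 0.41 at GD5.5.

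Some gland markers and some mast cell proteases were, like Calca, lower in GEN on average over the days. Of the 9 gland genes listed, 7 were on the array, 4 were above background on every array, and 5 of the 7 fell in GEN on average over the days (median -1.52, against -0.02 over all genes). Foxa2, a transcription factor required for gland formation, fell by 1.40 (SE 0.20, limma adjusted p = 4.72e-04), and Prss29, a serine proteinase secreted by glands, fell by 3.57 (SE 0.81, adjusted p = 0.0272). The mean level of the 7 was -2.77 to 0.17 on GD1.5 CON arrays and -3.47 to -2.54 on GEN arrays. It was -1.48 to -0.16 and -4.74 to -3.86 at GD3.5, 0.20 to 0.81 and -2.47 to -1.35 at GD4.5, and -0.68 to 0.01 and -1.94 to -0.44 at GD5.5. On the first GD1.5 CON array the gland mean was the lowest of its group (-2.77) while Calca was the highest (1.91). Of the 8 eosinophil and mast cell markers, the mast cell proteases Mcpt4, Cma1 and Tpsb2 fell in GEN on average, by 1.99, 1.61 and 1.61, and Prg2, an eosinophil granule protein, rose by 1.61. The others, among them the mast cell gene Cpa3, were not called between exposures. Tpsb2 was also called at GD3.5, where it fell by 3.34. The mean of the 8 markers was -2.51 to -2.25 on GD3.5 CON arrays and -3.57 to -3.44 on GEN arrays, while the exposures overlapped on the other days. At GD5.5 their group mean was higher in GEN (-3.53) than in CON (-4.10), and on the earlier days it was lower in GEN. The part of the gland and mast cell markers in the Calca difference was not tested.

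**Figure D2:**
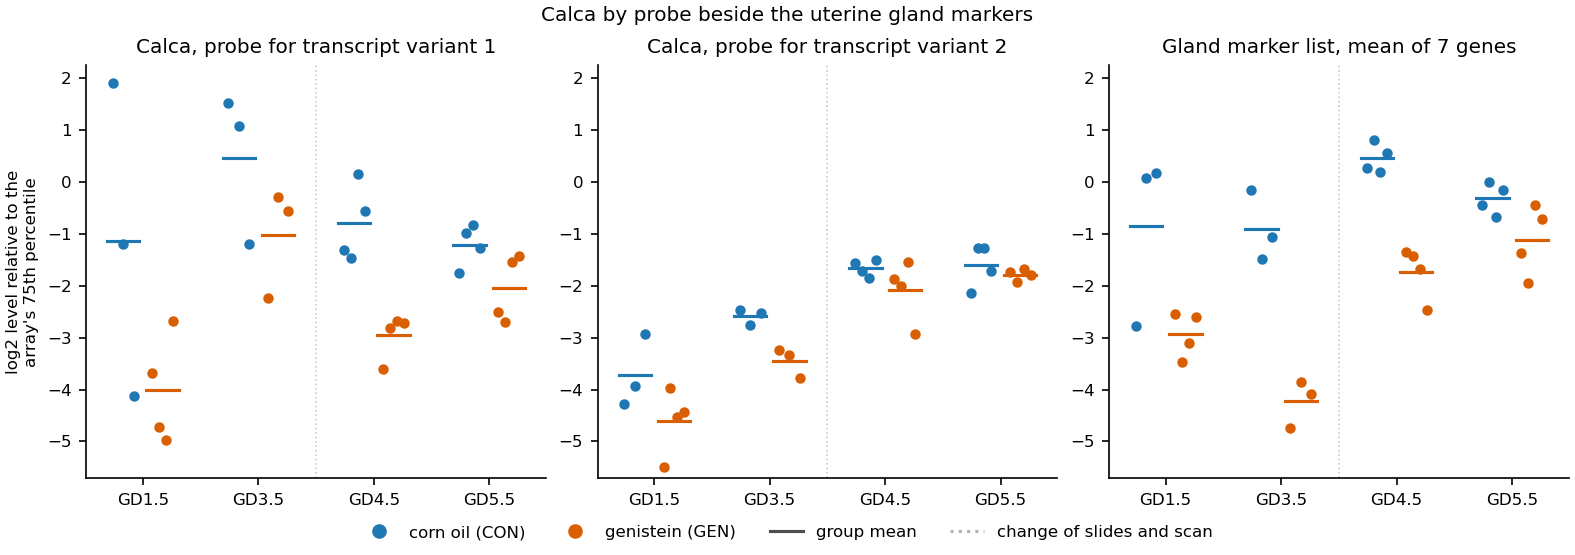
Log2 level relative to the array's 75th percentile (vertical axis) by day (horizontal axis) for the Calca probes of variant 1 and variant 2 and for the mean of 7 gland markers, 1 point per array, bars for group means. At GD4.5 the variant 1 and gland values of GEN (at most -2.67 and -1.35) lie below all CON values, while the variant 2 groups overlap.

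None of the other 9 genes was called between exposures, and the intervals were wide. Alox15 at GD4.5 came nearest to a call: -1.50 (SE 0.53, 95% interval -2.60 to -0.41, limma adjusted p = 0.320), with 3 of the 4 GEN arrays below every CON array and the remaining one (2.98) among them. Without that array its difference was called. Its exposure effect differed between GD4.5 and GD5.5 by 1.67 at an unadjusted p of 0.0352 (limma adjusted p = 0.665). Il13ra2 at GD1.5 was -1.08 (SE 0.48, 95% interval -2.07 to -0.09, adjusted p = 0.740), and it was called without the fourth GEN array. Gldc at GD3.5 was 1.18 (SE 0.61, adjusted p = 0.983) with no overlap of groups. Alox15 did not overlap there either (0.72, adjusted p = 1.000), at a day on which the groups of 20.3% of all genes did not overlap. The Olah groups did not overlap at GD4.5 (-1.71), where most of its arrays were not well above background.

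The other differences of over 1 on the log2 scale had intervals that held 0. Calb1 was 1.52 higher in GEN at GD5.5 (SE 0.88, 95% interval -0.29 to 3.33), where GEN arrays read -2.73, -0.40, -0.95 and -3.69. Drd4 was 1.29 higher in GEN at GD1.5 (95% interval -0.25 to 2.83) and 1.15 lower at GD5.5 (95% interval -2.58 to 0.27). The 95% intervals of the members reached 0.99 to 1.96 to either side at GD1.5, 1.06 to 2.09 at GD3.5, 0.92 to 1.81 at GD4.5 and 0.91 to 1.81 at GD5.5. For the average they reached 0.48 to 0.97. Apart from Calca, the average intervals of 8 genes lay wholly between -1 and 1, that is within a 2-fold difference either way, and that of Calb1 ran from -0.31 to 1.62. The Olah interval includes arrays on which it was not well above background. Averaged over the days Lrp2 differed by 0.01 (95% interval -0.80 to 0.83), Gldc by 0.03 (-0.55 to 0.61) and Alox15 by -0.09 (-0.67 to 0.49).

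**Figure D3:**
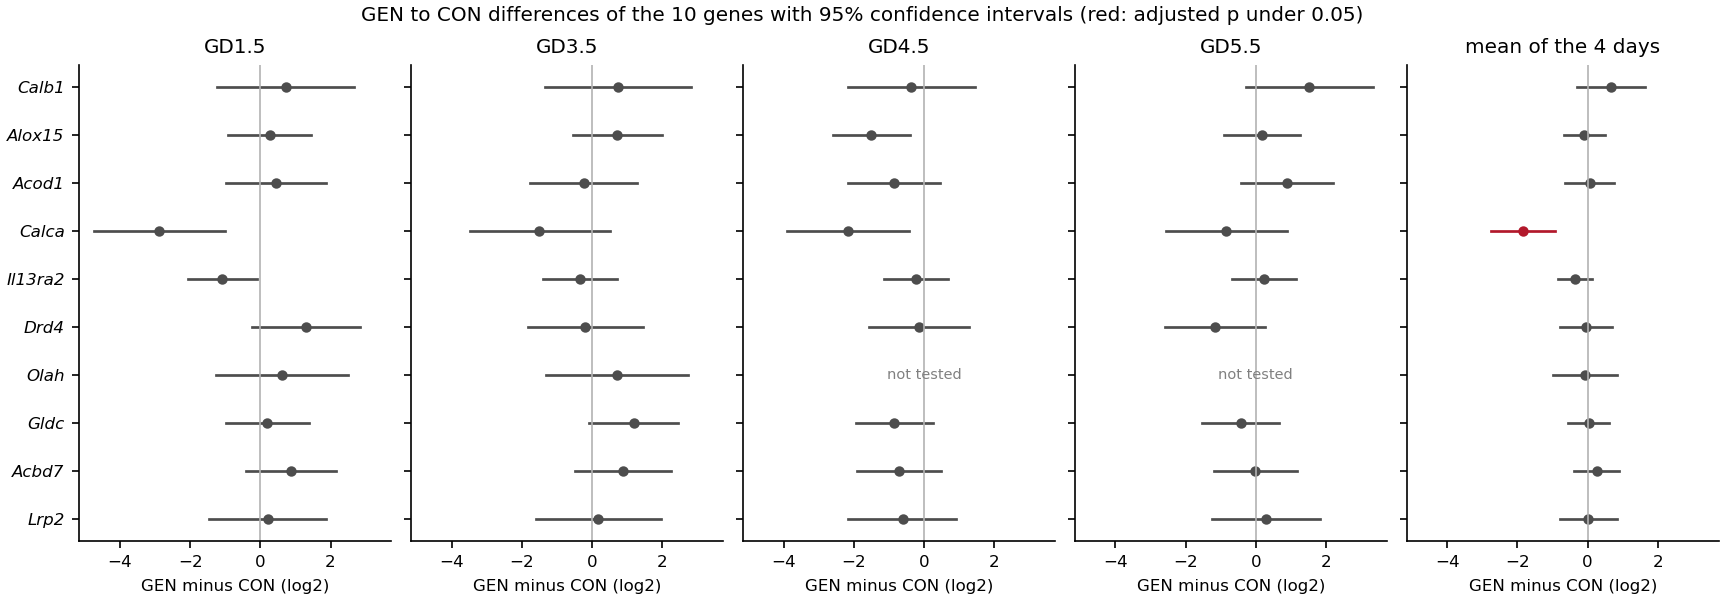
GEN minus CON differences on the log2 scale (horizontal axis) for each gene (vertical axis) with 95% confidence intervals, by day and averaged over the 4 days, with a called difference in red. Calca averaged over the days (-1.85) is the only red value, most intervals cross 0, and Olah was not tested at GD4.5 and GD5.5.

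The direction of the differences varied with the day. In GEN 8 of 10 members were higher at GD1.5 and 6 of 10 at GD3.5, 0 of 9 at GD4.5 and 5 of 9 at GD5.5, with medians of 0.36, 0.44, -0.71 and 0.17. The medians over all genes were -0.01, -0.03, -0.04 and -0.01. At GD4.5 the third CON array had the highest value of its group for 7 of the 10 genes, on average 1.16 above the group means. Without it the GD4.5 difference changed sign for Calb1 (-0.36 to 0.30), Drd4 (-0.14 to 0.56) and Lrp2 (-0.61 to 0.19), and was -0.18 for Acbd7 and -0.35 for Gldc. That array's epithelial list lay 0.47 above its group mean, its gland list 0.26 below and its eosinophil and mast cell list 1.07 above, and their part in its values was not tested.

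Within groups the genes tended to vary together. After each group's mean was taken off, 37 of the 45 pairs of members had r above 0 across the 29 arrays and 10 had r above 0.5, with a median of 0.26 and a range of -0.41 to 0.81. Both genes of a pair were read on the same arrays, so these are descriptions. The highest values were Olah with Acbd7 (0.81), Acbd7 with Lrp2 (0.81), Calb1 with Acbd7 (0.76), Calb1 with Lrp2 (0.68) and Gldc with Acbd7 (0.68). For Olah with Acbd7, only 13 of the 29 arrays measured Olah well above background. The first GD1.5 GEN array, which did not, deviated by -3.70 for Olah and by -1.76 for Acbd7. Alox15 with Drd4 was lowest (-0.41), followed by Acod1 with Lrp2 (-0.36). Besides the third GD4.5 CON array, the fourth GD1.5 GEN array stood 1.38 above its group on average, with the highest value for 8 of 10 genes. The first GD1.5 GEN array stood 1.10 below and the second GD4.5 CON array 0.74 below. The epithelial list deviated by 0.33, 0.26 and -0.49 on those 3 arrays. It deviated most on the fourth and second GD4.5 GEN arrays, by 1.19 and -1.11, where the members' mean deviations were 0.13 and -0.37. On the fourth GD4.5 GEN array the members went both ways, from -2.13 for Acod1 to 2.35 for Lrp2.

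**Figure D4:**
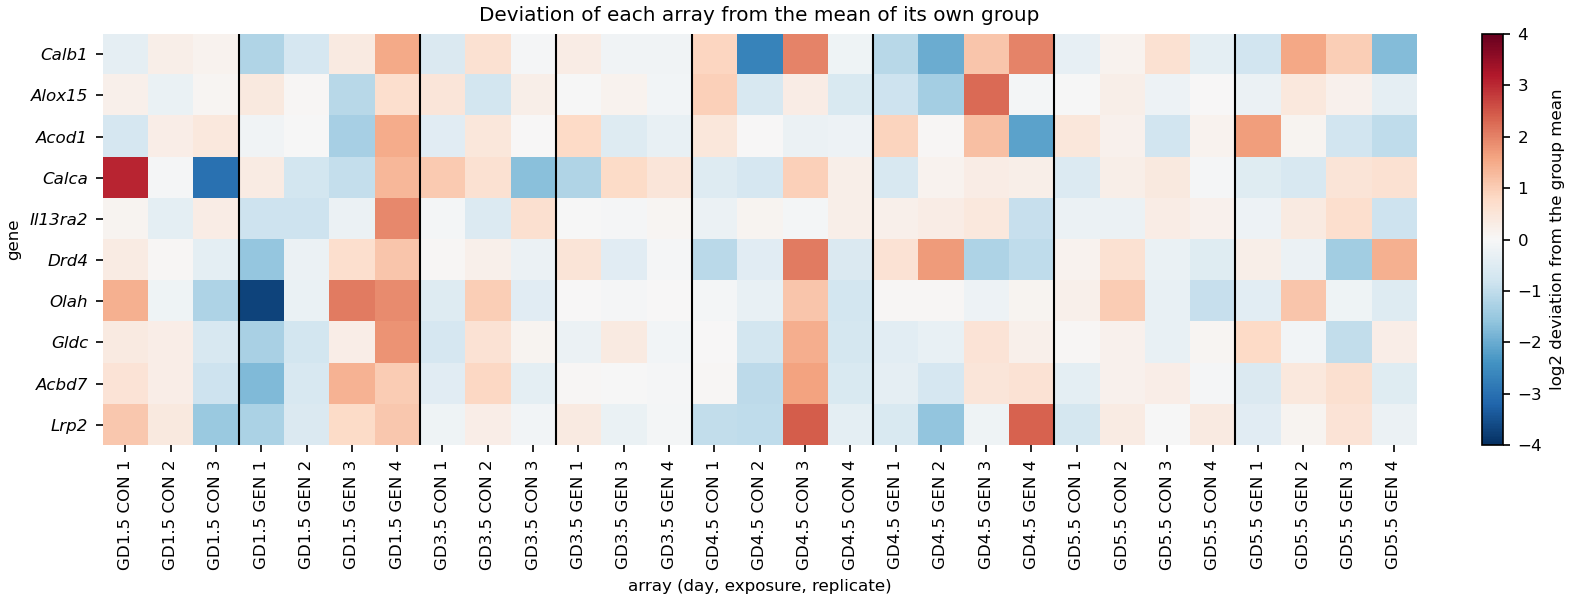
Deviation of each array (horizontal axis, grouped by day and exposure) from the mean of its own group on the log2 scale (colour, red above and blue below) for each gene (vertical axis). The third GD4.5 CON array and the fourth GD1.5 GEN array are red for most genes (mean deviations 1.16 and 1.38), and Calca is spread most within GD1.5 CON.

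The genes with profiles most like the members were found by Pearson correlation over the 29 arrays among 15413 genes, as a description. Acbd7 was followed by Meig1 (0.977), Insl6 (0.965) and Gstm2 (0.956), and Olah by Insl6 (0.944), Gstm2 (0.935) and Meig1 (0.933). Meig1 lies beside Olah on chromosome 2, with only the noncoding Gm39750 between them in RefSeq's order, so Acbd7, Olah and Meig1 are neighbours. Meig1, a gene known for spermatogenesis, had means of -5.67 at GD1.5, -1.97 at GD3.5 and -5.43 at GD4.5 in CON. At GD4.5 it was well above background on only 2 of 4 CON and 1 of 4 GEN arrays, and at GD5.5 on none. After group means were taken off, Acbd7 and Meig1 had r = 0.88 over the 29 arrays, so the correlations of Meig1 rest partly on background signals. Since only 13 arrays measured Olah well above background, its correlations rest largely on background signals.

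A second set of neighbours recurred among the like genes. Insl6, a peptide of the relaxin family, was like Acbd7 and Olah, and Rln1, the relaxin gene beside it on chromosome 19, was like the mean of the 10 members (0.909). Insl6 had CON means of 0.33 at GD1.5, 2.49 at GD3.5, 0.18 at GD4.5 and -0.33 at GD5.5, and Rln1 had -4.91, -1.78, -3.11 and -4.37. Their deviations within groups had r = 0.84. Rims3 (0.935) and Meig1 (0.931) were also among the genes most like the mean of the members.

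The other members had partners of their own. Calb1 was most like Fxyd4 (0.969), Hdc (0.968) and Cacna1d (0.964), where Hdc is the enzyme that makes histamine. Lrp2 was most like Sun1 (0.964), Pls3 (0.957) and Gstm3 (0.955), and Gldc was like Gstm2 (0.912) and Acot7 (0.910). Alox15 was most like Ap3b2 (0.946), Cldn7 (0.924) and Ezr (0.921), of which Cldn7 is a tight junction protein of epithelia and Ezr an apical cytoskeletal linker. Acod1 was most like Ggt6 (0.872), Slc1a1 (0.871) and Ptger2 (0.863), and Il13ra2 like Ppfia2 (0.904), Has2 (0.900) and Qtrt2 (0.895). Drd4 was most like Cnn3 (0.936), Jade1 (0.919) and Asic3 (0.917). Calca had the lowest values, with Mmut (0.826), Mccc1 (0.812) and Pter (0.788).

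Genes that work with the members were taken from 10 lists of 99 genes. None of those tested was called by limma between exposures on any day, on average or in the change of effect. At an unadjusted p under 0.05 there were 13 of 97 on average over the days, against 9.72% of all genes, and the medians by day were -0.07 to -0.01. Over the days, 3 of 92 rose and 2 fell from GD1.5 to GD3.5 in CON and 6 of 89 rose and 5 fell in GEN. From GD4.5 to GD5.5, 26 of 91 rose and 15 fell in CON and 13 of 89 rose and 8 fell in GEN. The shares called over all genes are those given for the members.

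In the calcium list, 6 of the 9 genes could be tested over the days. Trpv6, the apical calcium channel, fell from GD1.5 to GD3.5 by 3.15 in CON (limma adjusted p = 0.0206) and by 3.15 in GEN (adjusted p = 0.00760), while Calb1 was higher at GD3.5. S100g, the small calbindin, rose by 2.71 in GEN (adjusted p = 0.0470). The sodium-calcium exchanger Slc8a1 fell from GD4.5 to GD5.5 by 0.88 in CON and by 0.95 in GEN. Of 13 lipoprotein receptors and adaptors, 5 rose and 2 fell from GD4.5 to GD5.5 in CON. Among them Lrp8 rose by 1.46 (adjusted p = 0.00670) and Cubn, the partner of megalin, by 0.86 (adjusted p = 0.0125), whereas Sorl1 fell by 2.56 (adjusted p = 4.83e-04).

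Of 10 genes for lipoxygenases and leukotriene synthesis, Alox8 fell from GD1.5 to GD3.5 by 2.27 in CON (limma adjusted p = 0.0327) and fell by 3.30 in GEN (adjusted p = 5.08e-04). Alox12, Alox5 and Alox5ap fell from GD4.5 to GD5.5 in CON, by 0.84, 1.12 and 0.64, and Gpx4, which reduces lipid hydroperoxides, rose by 0.73. Of 11 genes of fatty acid synthesis, Acaca, the first committed enzyme, rose from GD1.5 to GD3.5 in both exposures, by 0.77 in CON (adjusted p = 0.0111) and by 0.72 in GEN (adjusted p = 0.00626). Of 5 other acyl-CoA-binding proteins, 0 changed from GD1.5 to GD3.5 in either exposure, and Dbi, Acbd3 and Acbd6 rose from GD4.5 to GD5.5 in CON, by 0.41, 0.31 and 0.75.

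The metabolic lists were compared from GD4.5 to GD5.5, a step over which 30.1% of all genes were called in CON and 21.0% in GEN. Of 10 genes around itaconate, 5 rose and 0 fell in CON, and 4 rose and 1 fell in GEN (Suclg2, by 0.56, limma adjusted p = 0.00248). The genes that rose in CON included Clybl, which takes part in the breakdown of itaconate (0.52, limma adjusted p = 0.0338), and the succinyl-CoA ligase subunits Sucla2 (0.50, adjusted p = 0.00120) and Suclg1 (0.49, adjusted p = 0.00256). Of 10 measured genes of glycine and one-carbon metabolism, 5 rose and 0 fell in CON and 4 rose and 0 fell in GEN. Those that rose in CON included the serine synthesis enzymes Phgdh (1.22, adjusted p = 0.00538), Psat1 (1.22, adjusted p = 0.0144) and Psph (1.06, adjusted p = 0.00134).

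In the signalling lists, Ramp1, which forms the receptor for calcitonin gene-related peptide together with Calcrl, fell from GD4.5 to GD5.5 in CON by 1.25 (limma adjusted p = 5.99e-04). Calcrl fell by 0.47 in CON (adjusted p = 0.0453) and by 0.90 in GEN (adjusted p = 0.00162), and Adm2 rose by 2.07 from GD1.5 to GD3.5 in CON (adjusted p = 0.0327). Of 10 genes of interleukin-4 and interleukin-13 signalling, 5 fell and 2 rose from GD4.5 to GD5.5 in CON. The signalling receptor Il13ra1 fell by 0.60 (adjusted p = 0.0171) and Il4ra by 0.63 (adjusted p = 0.0139), and Jak1 rose by 0.87 (adjusted p = 1.80e-04). In the dopamine list, Maob, an enzyme that degrades dopamine, fell from GD4.5 to GD5.5 by 1.92 in CON (adjusted p = 0.00114) and by 1.68 in GEN (adjusted p = 0.00686). Drd4 was higher over that step, and Ddc of the same list rose by 0.75 in CON (adjusted p = 0.0437). From GD1.5 to GD3.5, where Drd4 was also higher, Maob rose by 2.36 in GEN (adjusted p = 0.00185).

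The 18 genes listed as progesterone receptor targets of the uterus before implantation did not move together. From GD1.5 to GD3.5 only Areg, an epithelial growth factor, rose in CON, by 6.03 (limma adjusted p = 0.0157). In GEN 3 rose, Areg by 5.44 (adjusted p = 0.0120) and the hedgehog pathway genes Ptch1 by 1.52 (adjusted p = 0.0244) and Gli1 by 1.33 (adjusted p = 0.0111). From GD4.5 to GD5.5, 8 rose and 5 fell in CON. The epithelial ligand Ihh fell by 1.80 (adjusted p = 0.0126) and Msx1, a homeobox gene of the receptive uterus, by 2.82 (adjusted p = 5.97e-05). Bmp2, a ligand of decidualization, rose by 4.30 (adjusted p = 5.55e-06) and stromal Hand2 by 1.90 (adjusted p = 1.01e-04). None of the 18 was called by limma between exposures, and 2 had an unadjusted p under 0.05 on average over the days.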

How the data were processed

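Total RNA was labelled with Cy3 and hybridised to single-colour Agilent arrays, per the labels, and read with Agilent Feature Extraction 9.5, per the submitters' processing notes. The deposited scanner files hold one intensity per spot, the processed signal, already background-corrected per the file headers. For the main setting log2 of the processed signal minus each array's 75th percentile was taken. Control and outlier-marked spots were left out, repeated spots were averaged, and the brightest probe stood for a gene. Probes were named by accession through RefSeq's table, or else by symbol or synonym.

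Group means were fitted over all 29 arrays with limma 3.58.1 in R 4.3.3 (lmFit and eBayes), with Benjamini-Hochberg adjustment over the genes that 3 or more of the arrays under comparison measured well above background, and an adjusted p under 0.05 was a call. The script was tested on simulated data. The members and lists were chosen with earlier results of these data known. The genes named beyond the members were the 3 most like each member, the 10 most like their mean, and listed genes that passed the test. Some genes that this rule picks are not reported here.

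Alternatives were other background corrections (normexp, offset 50) and scalings, a filter keeping genes above background on all 29 arrays, each gene as the average of its probes, the slide as a fixed or random block, a replicate block, a fit on only the arrays compared, and each array left out in turn.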

Additional observations from a re-analysis of the deposited data

Results flagged for a closer look

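Calca in the first GEN array of GD4.5 was -3.60 on the log2 scale, against -2.81 to -2.67 in the other 3 arrays of its group. Its gap to the nearest array was 0.843 of the group's range, above Dixon's 95% critical value for 4 arrays. It was the only 1 of 50 groups of 4 arrays set apart in this way, and chance sets apart about 1 in 20. Of the arrays left out in turn, this one was among the 21 without which the average Calca difference lost its call.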

How the results depend on the processing

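Counts of called genes moved with the processing far more than the values of the 10 genes. Calls at GD1.5 (20 in the main setting) were 5 under normexp, 39 under normexp fitted without spots of high local background (an alternative chosen after seeing the data), 5 under quantile normalization, 6 with only genes above background on all 29 arrays, 12 with the slide as a fixed block and 1 from only the arrays compared. With each array left out in turn they ran from 1 to 31. At GD3.5 (21) the same settings gave 4, 61, 10, 7, 13 and 12, scaling to the median gave 35, and leaving out an array gave 4 to 35. At GD4.5 (25) the counts were 4 under normexp, 40 under its refit, 47 under quantile normalization, 15 on all 29 arrays, 46 with the slide as a random block, 6 from only the arrays compared, and 3 to 79 without an array. At GD5.5 (0) they were 9507, 8 and 1 under normexp, its refit and quantile normalization, 2 with the mean over probes, and 0 to 223 without an array. Averaged over the days (234) normexp gave 130, the genes on all 29 arrays 151, and leaving out an array 169 to 338. The change of effect by GD3.5 (0) was 1 from only the arrays compared and 0 to 1 without an array. The change by GD5.5 (1) was 38, 2, 4, 0, 3, 0 and 0 under normexp, its refit, quantile, median, genes on all 29 arrays, fixed slide and only the arrays compared, and 0 to 52 without an array.

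Over the days, calls by GD3.5 in CON (481) were 205 under normexp, 748 under its refit, 120 with the slide fixed, 287 from only the arrays compared and 154 to 750 without an array. By GD5.5 in CON (6515) they were 4331 from only the arrays compared and 4833 to 7301 without an array. In GEN they were 467 by GD3.5 under normexp (971 in the main setting, 328 to 1189 without an array). By GD5.5 (4405) they were 11578 under normexp, 943 with the slide fixed, 0 from only the arrays compared and 2156 to 5619 without an array.

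Members called ran from 0 to 1 without an array at GD1.5, at GD4.5 and on average. Normexp called 0 on average and 1 at GD5.5, Gldc, whose difference turned from -0.43 to 1.07 while the median of all genes moved to 0.28; under the refit it was -0.10. The fifth percentile of the signal after normexp was 59.1 to 540 over the arrays and 59.1 to 70.8 after the refit, and the cause was not tested for the other changes. The average Calca difference was called under the refit (-1.54), quantile normalization (-1.82), the median (-1.86), the mean over probes (-1.22), the slide as a fixed (-2.11) or random (-1.88) block and the genes on all 29 arrays (-1.85).

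With the replicate number as a block, 31 genes were called at GD1.5 and Calca averaged -2.02 (limma adjusted p = 0.0251). Same-numbered arrays had r from -0.26 to 0.49 (median 0.121, 13 pairs) and others from -0.491 to 0.505 (median -0.008, 40 pairs). These ranges overlap, so they do not settle whether the numbers pair the samples. Olah is limited by its signal over background.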
